A study of Mus musculus with 6 samples.

Results

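SR proteins and hnRNPs are the best known families of RNA-binding proteins that choose splice sites. Their genes were taken from the count table by symbol, as every entry that begins with Srsf and a digit or with Hnrnp and is not marked as a pseudogene. That gave 31 of 48587 genes, 11 of the SR family and 20 of the hnRNP family, in microglia of C57BL/6 mice at postnatal day 42. The samples were 3 of wild-type and 3 of Lyl1 knockout genotype, each of about 1000 sorted cells. No other treatment or allele is given in the labels, which do not say how Lyl1 was disrupted or whether the samples came from separate mice. The p-values therefore rest on a spread between samples that may be technical.

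As background, pre-mRNA splicing removes introns in the spliceosome, a machine built from small nuclear ribonucleoproteins (snRNPs). SR proteins carry RNA recognition motifs and a tail rich in arginine and serine that SR protein kinases phosphorylate, and they mostly promote the use of nearby exons from exonic enhancers. The hnRNPs coat nascent transcripts, often repress exon inclusion, and also act in RNA export, translation and decay. Many genes of both families limit their own output by splicing in an exon with a premature stop, so that the transcript is removed by nonsense-mediated decay. Counts per gene do not separate such transcripts from the productive ones. Microglia are the resident macrophages of the brain, and Lyl1 encodes a transcription factor of the helix-loop-helix type that works in the blood lineages. The series title links Lyl1 to microglial development and neuropsychiatric disorders, and the samples allow transcript levels to be compared between the genotypes.

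Total counts ran from 12753945 to 27378614 reads per sample and detected genes from 12827 to 15652. The fewest genes were detected in wild-type samples 1 and 2 and knockout sample 1. Lyl1 itself had 683, 1399 and 839 reads in wild type, against 205, 237 and 410 in knockout. The knockout samples were all lower and none was at 0, with a log2 fold change of -2.14 ± 0.98 (SE) and an adjusted edgeR p of 0.9999. Which exons were removed is not given, so reads from the rest of the gene could remain. Levels below are CPM, read counts scaled to a common library size after TMM correction. Summed over 10 microglia markers they ran from 59253 to 63082 CPM in wild type and from 56669 to 61895 in knockout. Among markers of other cells, Gfap and Aldh1l1 of astrocytes, Snap25 and Gad1 of neurons, Cldn5 and Ly6c1 of endothelium, Cd3e, Cd3g and Cd4 of T cells and S100a8, Ly6g and Ngp of neutrophils had 0 reads in all samples. Other members of these lists were present. Slc1a3, a glutamate transporter of astrocytes, was at 408, 402 and 176 CPM in wild type and 258, 229 and 170.2 CPM in knockout, and Pecam1 of endothelium at 154, 26.1 and 37.7 against 27.2, 61.5 and 33.9 CPM. The summed astrocyte, oligodendrocyte, endothelial and border macrophage lists were all highest in wild-type sample 1, at 410, 379, 179.7 and 95.7 CPM. The red cell genes were at 0.159 to 1.23 CPM in wild type and 227, 65.2 and 0.243 CPM in knockout samples 1 to 3. Their part in the results on splicing factors was not tested.

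How far reads of 50 bases from coding sequence can be assigned to a single gene differed greatly within the families. For each member the longest annotated coding sequence was cut into all windows of 50 bases, and a window was called shared when a transcript of another gene in GENCODE M21 (GRCm38) holds it exactly. For 9 of 31 members at least 50% of the coding windows were shared, and for 19 members less than 15%. The sequences below set members beside their paralogs, with capitals marking bases that differ from the first sequence of each set. The exact copies in other genes are not printed. The first is the coding stretch of Hnrnpa1 that the most other genes hold, 9 in number. It spans the junction that follows exon 4 (chr15:103242078-103242219, plus strand), and its aligned stretches in the paralogs Hnrnpa2b1 and Hnrnpa3 differ at 10 and 8 of 50 bases.
Hnrnpa1: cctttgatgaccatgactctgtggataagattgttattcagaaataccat
Hnrnpa2b1: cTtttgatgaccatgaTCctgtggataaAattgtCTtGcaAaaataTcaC
Hnrnpa3: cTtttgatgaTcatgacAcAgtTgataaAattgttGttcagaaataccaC
The next set is the most alike stretch of Hnrnph1 and Hnrnph2, whose coding sequences are 85.1% identical. It spans the junction after exon 9 of Hnrnph1 (chr11:50383294-50383708, plus strand) and differs at 1 base.
Hnrnph1: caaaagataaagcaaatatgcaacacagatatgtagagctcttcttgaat
Hnrnph2: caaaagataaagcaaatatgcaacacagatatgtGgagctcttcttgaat
The last set is the most alike stretch of Srsf3 and Srsf7, whose coding sequences are 63.9% identical. It lies within exon 2 of Srsf3 (chr17:29036351-29036400, plus strand) and differs at 11 bases.
Srsf3: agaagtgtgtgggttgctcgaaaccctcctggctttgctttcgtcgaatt
Srsf7: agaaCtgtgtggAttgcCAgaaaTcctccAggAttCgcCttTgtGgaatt

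The paralogs differed from each other in these stretches, and the exact copies of Hnrnpa1 and Hnrnpa3 lay mainly in pseudogenes. Hnrnpa1, a shuttling hnRNP that represses many exons, shared 80.8% of its coding windows. Over all of its transcripts, windows of Hnrnpa1 were found in 20 other genes, of which 19 are pseudogenes. Hnrnpa3 shared 97.7%, with windows in 46 other genes of which 41 are pseudogenes, and Hnrnpf, a binder of G-rich sequence, shared 96.1%. Over the windows of all transcripts, not the coding part alone, the share was lower. It was 28.2% for Hnrnpa1, 27.1% for Hnrnpa3 and 61.9% for Hnrnpf. Hnrnpa1 had 13, 31 and 47 reads in wild-type samples 1 to 3 and 65, 37 and 45 in knockout samples 1 to 3. Of the 10 genes with at least 100 windows in common with Hnrnpa1, the 6 that have an entry in the table held at most 4 reads in any library. Hnrnpa3 had 0, 328 and 102 reads in wild type, against 167, 0 and 184 in knockout. Gm6793, an annotated coding gene with 1135 windows in common with Hnrnpa3, had 179 reads in wild-type sample 1 and 0 in the other 5 samples. A high coding share did not always go with a low count, since Srsf3 at 89.4% and Hnrnpk at 75.1% were among the more abundant members. Over all transcripts Srsf3 shared 10.0% and Hnrnpk 17.8% of windows. The treatment of reads with several matches is not given in the sources used here, and its part in these counts was not tested. The levels of Hnrnpa1, Hnrnpa3 and Hnrnpf are uncertain for this reason.

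**Figure D1:**
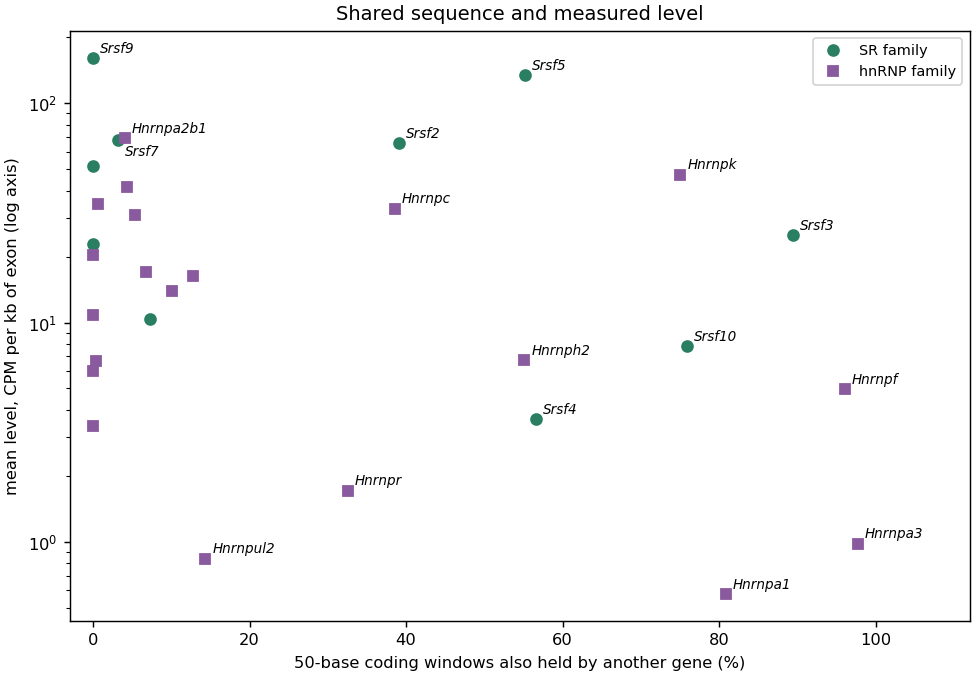
Mean level over 6 samples (CPM per kb of annotated exon, log axis) against the percentage of 50-base coding windows that another gene holds, for the 30 tested SR and hnRNP genes, 1 point per gene. Hnrnpa1 and Hnrnpa3 combine a high share (80.8% and 97.7%) with the levels of 0.578 and 0.977, whereas Srsf5 and Hnrnpk lie high on the level axis at 55.2% and 75.1%.

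Overlap with neighbouring genes was also a source of uncertainty, because the library kit does not mark strand. It is not separate from the window shares above, which count such neighbours as other genes. Srsf4 shared 56.6% of its coding windows, and all 1443 shared windows of its transcripts lay in the overlapping antisense gene Gm12992. Exons of 14 members overlap those of another annotated gene. By share of exon bases the largest overlaps were 43.0% of Srsf4 with the antisense gene Gm12992, 29.1% of Hnrnpab with Phykpl, 15.6% of Srsf2 with Mettl23 and 14.7% of Hnrnpm with March2 on the same strand. Values of Srsf4, Hnrnpab, Srsf2 and Hnrnpm can include or lack reads of those neighbours. Srsf2 also has 240 windows in common with the coding gene Mfsd11, which held 591 to 6428 reads per library. A single pseudogene entry, Hnrnpa1l2-ps, matched the family pattern and held 1 read in all.

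Both families were led by few genes. Per kb of annotated exon the highest mean levels were those of Srsf9 (161 CPM per kb) and Srsf5 (134), followed by Hnrnpa2b1 (69.2), Srsf7 (67.9), Srsf2 (65.7) and Srsf6 (51.5). Srsf9 is a close relative of Srsf1, and Hnrnpa2b1 encodes hnRNP A2 and B1, which also guide RNA transport. This order depends on the length used. With the length of the longest coding transcript Srsf5 came first at 357, before Hnrnpa2b1 at 264 and Srsf9 at 229. By either length the lowest member with reads was Hnrnpa1, then Hnrnpul2 and then Hnrnpa3. Per kb of annotated exon they were at 0.578, 0.836 and 0.977 CPM. Per kb of the longest coding transcript they were at 0.949, 1.16 and 4.63 CPM. The values of Hnrnpa1 and Hnrnpa3 are uncertain, as described above. Srsf12, an SR protein that represses splicing, had 0 reads in all 6 samples, which allows up to 0.104 to 0.264 CPM depending on the library (3 reads, counting error only).

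Summed over their members, the families took up nearly equal and stable parts of the libraries. The SR total was 2045, 1940.4 and 1771 CPM in wild-type samples 1 to 3 and 2265, 1962 and 2018 CPM in knockout samples 1 to 3. That is 1919 ± 138 against 2081 ± 161 CPM (SD, n = 3 each). The hnRNP total was 2195, 2121 and 2098 CPM in wild type and 2479, 2139.8 and 2005 CPM in knockout, or 2138 ± 50.6 against 2208 ± 244 CPM. For both families the genotypes overlapped, and knockout sample 1 was the highest of all 6. Srsf5 was the largest contributor to the SR total in 5 samples, with 24.8% to 30.6%. In wild-type sample 1 Srsf3 led instead, with 19.98%. Hnrnpa2b1 led the hnRNP total in every sample, with 18.2% to 22.1%.

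**Figure D2:**
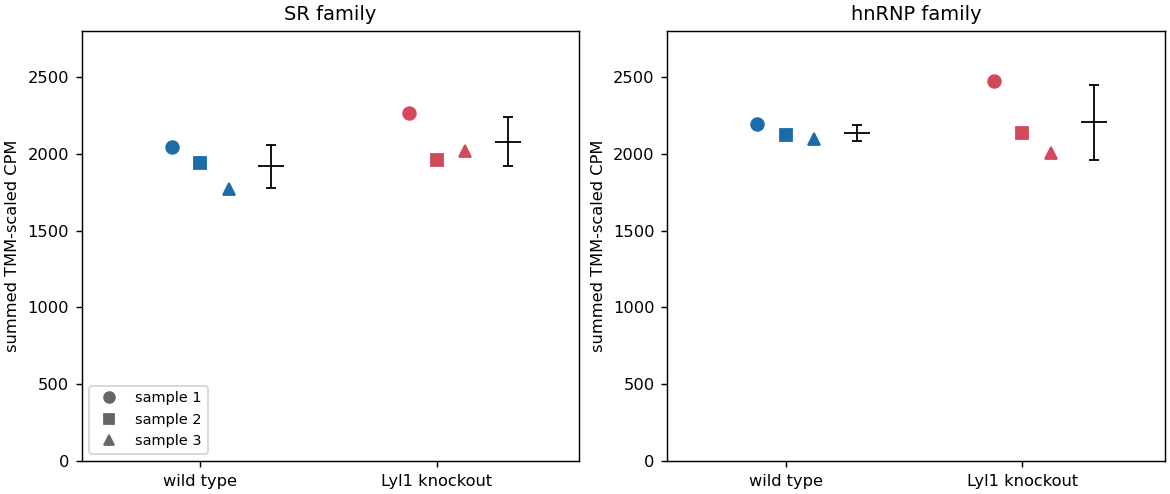
Summed TMM-scaled CPM of the 11 SR genes and the 20 hnRNP genes in each sample (points), with mean and SD per genotype (bars, n = 3). The genotypes overlap in both panels, and knockout sample 1 is highest, at 2265 and 2479 CPM.

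No SR or hnRNP gene differed between the genotypes past the threshold. Of the 31 members 30 passed the filter on low counts, all but Srsf12, and edgeR's quasi-likelihood test called 0 of them, as it called 0 of all 10394 tested genes (0%) at an adjusted p under 0.05. An unadjusted p under 0.05 was found for 0 members, and among all tested genes for 121 higher (1.16%) and 174 lower ones (1.67%), together 2.84%. DESeq2 on the same genes called 52 genes (0.5%), edgeR without a filter on low counts 8 of 22005 (0.0364%) and limma-voom 0, and none of these was a member. Adjusted p was 0.9999 for all 30 members. The standard errors of the members' log2 fold changes had a median of 0.58, so that many differences of the sizes described below lie within error. In sorted bulk samples a lower share of cells that express a gene and less RNA per cell cannot be told apart.

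In the SR family 7 of 10 tested members had a positive log2 fold change (knockout over wild type) and 3 a negative one, with a median of 0.16, where 48.7% of all tested genes were positive and their median was -0.03. The median of the family was positive in each of 15 alternative analyses (0.11 to 0.32), with 6 to 9 members positive. With limma-voom, which moves the median of all genes by 0.23, the family median of 0.20 was level with that of all genes, also 0.20. In the hnRNP family 9 of 20 members were positive and 11 negative, with a median of -0.14. That sign was not stable. It turned positive with upper-quartile scaling (0.04), which moves the median of all genes by 0.12, with limma-voom (0.08), and also without wild-type sample 2 (0.05) or without knockout sample 2 (0.09). Set against the median of all genes, it was negative in every alternative but the one without knockout sample 2 (0.13).

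Within libraries, the median of the tested SR members on the log2(CPM + 1) scale, set against each gene's wild-type mean, was -0.09, 0.13 and 0.01 in wild-type samples 1 to 3 and 0.49, 0.27 and 0.16 in knockout samples 1 to 3. The same median over all 10394 tested genes was -0.16, -0.09 and 0.29 in wild type and 0.11, 0.12 and 0.35 in knockout. The SR median lay above that of all genes by 0.06 and 0.22 in wild-type samples 1 and 2 and by 0.38 and 0.14 in knockout samples 1 and 2, and differed from it by -0.28 in wild-type sample 3 and -0.19 in knockout sample 3. Set against all genes, the genotypes thus overlapped. The summed level of 19 immediate-early genes, which cells switch on soon after a stimulus or tissue handling, was 10297, 8647 and 9534 CPM in wild type and 20230.4, 16468 and 8975 CPM in knockout. Knockout samples 1 and 2 were the highest in this sum and knockout sample 3 was within the wild-type range. The part of these genes in the SR values was not tested. For the hnRNP members the same median was 0.10, 0.00 and 0.19 in wild type and 0.04, -0.06 and -0.04 in knockout, with overlap between the genotypes. Its difference from the median of all genes was 0.26, 0.10 and -0.10 in wild-type samples 1 to 3. In knockout samples 1 to 3 this difference was -0.06, -0.18 and -0.39. The genotypes overlapped here only in that knockout sample 1 lay above wild-type sample 3.

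**Figure D3:**
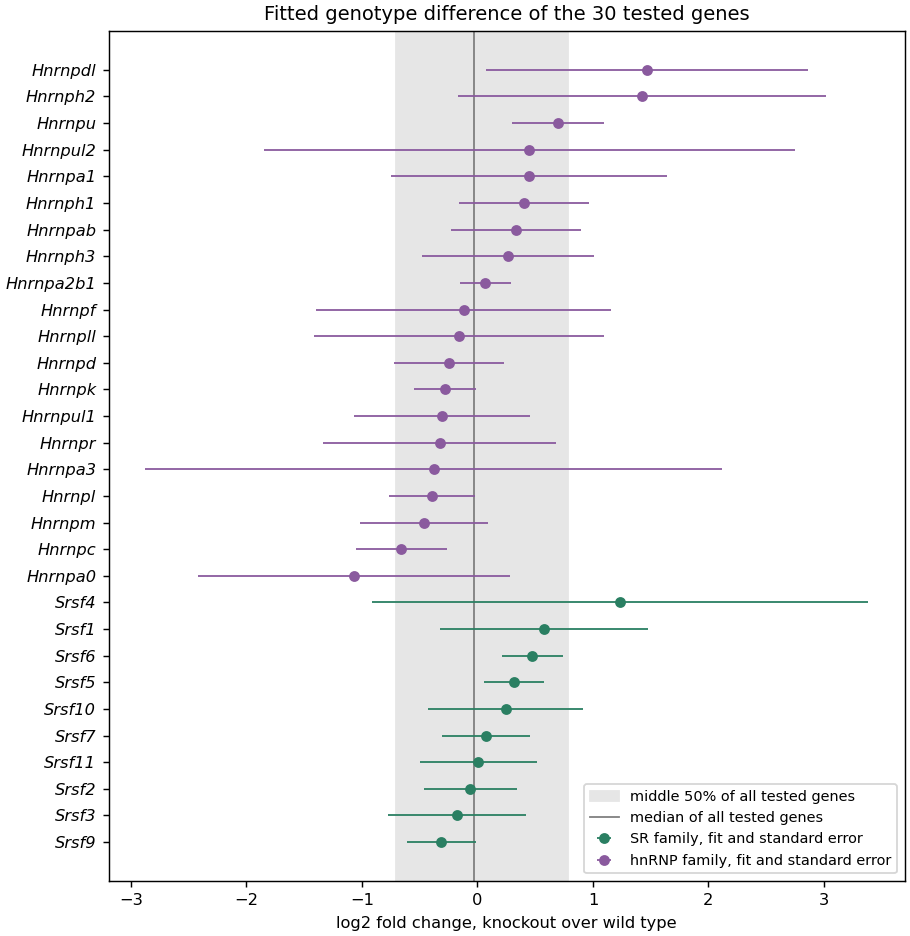
Fitted log2 fold change, knockout over wild type, with its standard error, for the 10 tested SR and 20 tested hnRNP genes, sorted within each family. The grey band is the middle 50% of all tested genes and the line their median of -0.03, and the error bars of most members reach past 0.

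Srsf6, an SR protein with a pair of RNA recognition motifs (ENSMUSG00000016921, chromosome 2, 162931528 to 162937121, plus strand), had the smallest p of the SR family. It was at 199, 214 and 209 CPM in wild-type samples 1 to 3 and at 263, 318 and 285 CPM in knockout samples 1 to 3. The genotypes did not overlap, which was the case for 1 of 10 SR members in this direction and for 5.97% of all tested genes. The means were 207 ± 8.01 and 288 ± 27.9 CPM (SD, n = 3 each), 1.39-fold apart, with a log2 fold change of 0.48 ± 0.26 (SE) and an unadjusted edgeR p of 0.111. None of its coding windows is shared and no other gene's exons overlap it. The log2 fold change was 0.42 to 0.61 over all 15 alternatives.

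Srsf5, the most abundant SR gene by CPM and first described as a gene that insulin induces in liver cells, was at 355, 576 and 498 CPM in wild type, against 673, 487 and 618 CPM in knockout. Knockout sample 2 lay below 2 of the wild-type samples, so the genotypes overlapped. The log2 fold change was 0.31 ± 0.26 (SE). Srsf9 lay the other way, with 363, 289.7 and 232 CPM in wild type against 191, 255 and 266 CPM in knockout, again with overlap, and a log2 fold change of -0.31 ± 0.30 (SE). Both kept their sign in all 15 alternatives, but their size rested on single samples. Srsf5 was at 0.15 without wild-type sample 1 and 0.50 without wild-type sample 2, and Srsf9 at -0.13 without wild-type sample 1 and -0.45 without wild-type sample 3. Srsf7, which binds RNA through a zinc knuckle beside its recognition motif, was at 151, 262 and 292 CPM in wild type and 215, 339 and 187 CPM in knockout. Its log2 fold change of 0.07 was under its standard error of 0.38 and turned negative in 3 alternatives.

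The least even of the well-expressed SR genes were Srsf1 and Srsf3. Srsf1, the founding member of the family (chromosome 11, 88047373 to 88053755, plus strand), was at 9.43, 93.4 and 40.0 CPM in wild type, against 96.0, 59.7 and 57.2 CPM in knockout. The lowest and the highest of the 6 samples were 10.2-fold apart, and 2 of the 3 knockout values lay within the wild-type range. The log2 fold change of Srsf1 was 0.58 ± 0.90 (SE), with 0.10 without wild-type sample 1 and 1.54 without wild-type sample 2. Srsf3, the smallest SR protein, was at 409, 87.3 and 133 CPM in wild type, against 229, 199 and 128 CPM in knockout. Its log2 fold change of -0.18 turned to 0.77 without wild-type sample 1, the sample with the high value. Srsf2, which also acts in transcription elongation, ran from 146 to 255.6 CPM in wild type and from 115 to 229 CPM in knockout. Srsf11 ran from 103 to 258 and from 99.5 to 288 CPM, and Srsf10, a splicing repressor when dephosphorylated, from 45.4 to 57.3 and from 43.5 to 73.0 CPM. For all 3 of these genes the genotypes overlapped.

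**Figure D4:**
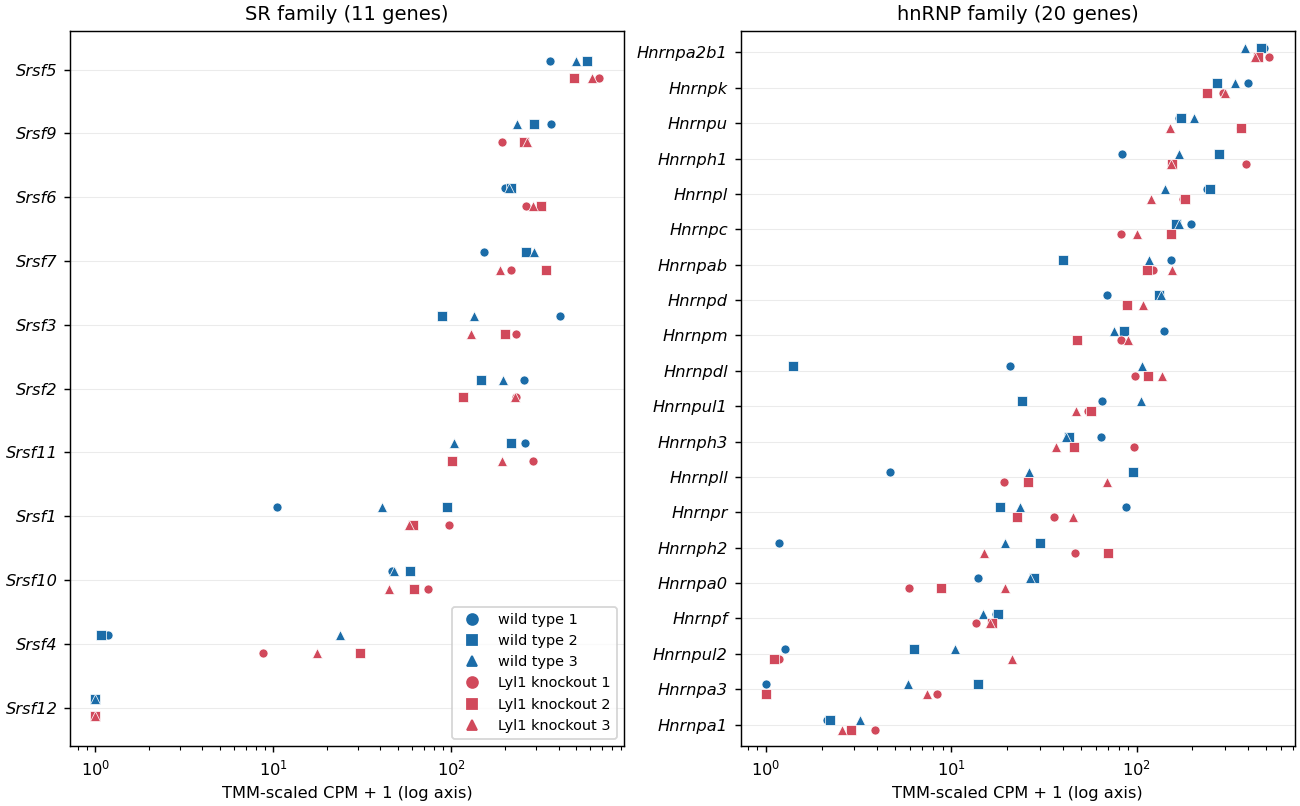
Level of every SR and hnRNP gene in each of the 6 samples (TMM-scaled CPM + 1, log axis; colour gives the genotype and marker shape the sample number). Abundant genes such as Hnrnpa2b1 and Srsf6 form tight clusters, whereas Srsf4, Hnrnpdl, Hnrnph2 and Hnrnpul2 have samples near 1 on this axis, where no or few reads were counted.

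Among hnRNP genes, Hnrnpu and Hnrnpc had the smallest p. Hnrnpu encodes a nuclear matrix protein that binds RNA and chromatin (ENSMUSG00000039630, chromosome 1, 178321108 to 178337797, minus strand). It was at 167, 172 and 203 CPM in wild type, against 360.2, 366 and 149.6 CPM in knockout. Knockout samples 1 and 2 stood above every wild-type sample, while knockout sample 3 was the lowest of all 6. The log2 fold change was 0.69 ± 0.40 (SE), with an unadjusted edgeR p of 0.121. Without knockout sample 3 it was 1.01, with an unadjusted p of 0.0240 and an adjusted p of 0.9998 in edgeR. It was positive in all 15 alternatives.

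Hnrnpc encodes a core protein of hnRNP particles that binds uridine tracts (ENSMUSG00000060373, chromosome 14, 52073377 to 52104028, minus strand). It was at 196, 162 and 168 CPM in wild type, against 81.0, 152 and 99.8 CPM in knockout. The genotypes did not overlap, as for 1 of 20 hnRNP members and 5.19% of all tested genes in this direction. The means of 175 ± 18.0 and 111 ± 36.8 CPM gave a log2 fold change of -0.66 ± 0.39 (SE) and an unadjusted edgeR p of 0.134, and it was negative in all 15 alternatives (-0.94 to -0.48). Of its coding windows 38.5% are shared. The pseudogene Gm12696 has 365 of the 391 shared windows of all its transcripts and held 69 to 195 reads per library.

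The most abundant hnRNP gene, Hnrnpa2b1 (chromosome 6, 51460932 to 51469894, minus strand), was also among the most even. It was at 486, 467 and 383 CPM in wild type and 519, 448 and 432 CPM in knockout, or 445 ± 55.0 and 466 ± 46.3 CPM, with a log2 fold change of 0.07 ± 0.22 (SE). The sign turned in 4 alternatives. Hnrnpk, which binds cytosine-rich sequence, was at 396, 271 and 339 CPM in wild type and 292, 237 and 298 CPM in knockout. Hnrnpl, a binder of CA repeats, was at 238, 248 and 142 CPM in wild type and 177, 181 and 119 CPM in knockout. Both overlapped between genotypes, and their log2 fold changes of -0.28 and -0.40 had standard errors of 0.27 and 0.37. With a sample left out they were -0.39 to -0.13 for Hnrnpk and -0.60 to -0.22 for Hnrnpl. Hnrnph1, which binds G tracts, was at 82.8, 276 and 167 CPM in wild type and 388, 154 and 152 CPM in knockout. Its log2 fold change of 0.40 turned to -0.20 without knockout sample 1.

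Several hnRNP genes were low or near absent in some libraries and well detected in others. Hnrnpdl, a relative of Hnrnpd (chromosome 5, 100033577 to 100039664, minus strand), had 223, 10 and 2206 reads in wild type, against 2212, 2238 and 3890 in knockout. Wild-type sample 3 was within the knockout range of 97.4 to 135 CPM, at 105 CPM, and wild-type samples 1 and 2 were far below, at 19.7 and 0.397 CPM. The log2 fold change was 1.47 ± 1.39 (SE), with an unadjusted p of 0.324 in edgeR, and it was 0.90 without wild-type sample 2 and 3.54 without wild-type sample 3. For this gene limma-voom gave 3.94 with an unadjusted p of 0.0394 and an adjusted p of 0.722. Its relative Hnrnpd was more even, at 68.5 to 134 CPM in wild type and 86.2 to 107 CPM in knockout. Hnrnph2 had 2 reads in wild-type sample 1, 735 and 388 in the other 2 wild-type samples and 1030, 1356 and 404 in knockout. Hnrnpll, a regulator of CD45 splicing in lymphocytes, had 42, 2392 and 531 reads in wild type, against 413, 492 and 1950 in knockout. Hnrnpul2 had 3, 134 and 199 reads in wild type, against 4, 2 and 584 in knockout, with no order by genotype.

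Srsf4 was the SR gene of this kind. It had 2, 2 and 477 reads in wild type, against 177, 584 and 480 in knockout, so that wild-type sample 3 lay inside the knockout range. Its log2 fold change was 1.23 ± 2.15 (SE). Without wild-type sample 3 it was 7.12, with an unadjusted edgeR p of 0.0193 and an adjusted p of 0.415, and the wild type then consisted of the samples with 2 reads each. In all, 1 of 10 SR and 3 of 20 hnRNP genes tested had a library with at most 3 reads beside another with at least 100, against 36.6% of all tested genes. Level matters for this comparison. All 4 of these genes, Srsf4, Hnrnpa3, Hnrnpul2 and Hnrnph2, had a mean below 50 CPM. Below 20 CPM such a pattern held for 67.5% of tested genes, and for 3 of 6 members.

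Among the members with a mean of 50 CPM or more, the spread between replicates was smaller at higher levels. At a mean of 200 CPM or more the 8 members had a median coefficient of variation of 19.7% (average of the genotypes), against 25.3% for the 649 tested genes from 200 to 1000 CPM. From 100 to 200 CPM it was 31.03% in 7 members against 39.5%, and from 50 to 100 CPM 38.7% in 6 members against 55.6%. From 20 to 50 CPM the median of the 3 members was equal to that of all genes, at 78.2%, and below 20 CPM it was 75.4% in 6 members against 110.1%. Srsf6 was the most even of all, with 3.86% in wild type and 9.68% in knockout. These shares describe the samples and were not tested.

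The remaining hnRNP genes overlapped between the genotypes as well. Hnrnpab ran from 39.2 to 152 CPM in wild type and from 112.2 to 153 CPM in knockout, and Hnrnpm from 74.0 to 139 and from 46.4 to 89.0 CPM. Hnrnpa0, which binds AU-rich elements, was at 12.96, 26.9 and 25.6 CPM in wild type and 4.89, 7.83 and 18.5 CPM in knockout, with a log2 fold change of -1.07 ± 1.35 (SE). Hnrnph3 ran from 40.3 to 63.5 and from 35.7 to 95.4 CPM, Hnrnpul1 from 23.1 to 105 and from 46.0 to 55.7 CPM, and Hnrnpr from 17.4 to 87.0 and from 21.7 to 44.4 CPM. Hnrnpf, uncertain because of its copies, ran from 13.9 to 16.9 and from 12.7 to 15.7 CPM.

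The wider splicing machinery was read from 6 gene lists, and no member of any of them was called. For comparison, 48.7% of all tested genes had a positive log2 fold change. The genotypes did not overlap for 5.97% of them in the higher and 5.19% in the lower direction. The genes named below are among the 3 with the smallest p of each list, so their choice favoured a separation between the genotypes. A list of 12 tested proteins was made for the U1 snRNP and the Sm ring, the shared core of spliceosomal snRNPs. It also held Snrpa1 and Snrpb2, which are proteins of the U2 snRNP. Of the 12 proteins, 11 had a negative log2 fold change, with a median of -0.52 over all 12. The 1 positive member was Snrpa1 (1.07), and Snrpb2 was at -0.59. Their summed level was 1109.5, 894 and 717 CPM in wild-type samples 1 to 3 and 606, 563 and 618 CPM in knockout samples 1 to 3, so that the sums did not overlap. The median stayed negative in all 15 alternatives, from -0.66 to -0.16, with 7 to 11 members negative. The value nearest 0, -0.16, was that without wild-type sample 1, the sample with the highest sum. In that fit 5 members were positive and 7 negative, a split that limma-voom also gave (median -0.29). Snrpd3, an Sm protein, was at 282, 50.8 and 77.9 CPM in wild type and 39.3, 29.6 and 55.3 CPM in knockout, and Snrpb, the Sm protein B, at 242, 462 and 234 CPM and 263, 179 and 142 CPM. Both overlapped between genotypes, and 0 of the 12 had an unadjusted p under 0.05.

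A further list held 17 other proteins of the U2 snRNP and U2AF, which recognise the branch point and the 3′ splice site. Of these 17, 11 were negative (median -0.35) and 2 of them had an unadjusted edgeR p under 0.05. Among all tested genes an unadjusted edgeR p under 0.05 was found for 1.67% lower and 1.16% higher ones. Sf3b3, a scaffold of the SF3B complex, was at 189.5, 102 and 73.1 CPM in wild type and 35.5, 38.7 and 25.7 CPM in knockout, without overlap, and Sf3b6 at 113, 265 and 55.8 CPM against 41.3, 61.6 and 35.9 CPM, with overlap. The 22 tri-snRNP and Prp19 complex proteins were split 13 positive to 9 negative (median 0.32). Prpf6, a bridge between the U5 and U4/U6 particles, was at 0.529, 6.48 and 20.1 CPM in wild type and 126, 35.9 and 78.9 CPM in knockout, without overlap and with an unadjusted edgeR p of 0.0482. Bcas2, a Prp19 complex subunit, was at 123.4, 188 and 91.9 CPM in wild type and 37.2, 33.3 and 61.4 CPM in knockout, without overlap and with an unadjusted edgeR p of 0.0212.

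The 41 tested other splicing regulators were split 23 positive to 18 negative, with a median of 0.03. The poly(C)-binding Pcbp1, also known as hnRNP E1, was at 217, 259 and 303 CPM in wild type and 483, 384 and 313 CPM in knockout, without overlap. SR protein kinases and import receptors were split 6 to 6 of 12. Dyrk1a, a kinase that phosphorylates splicing factors, was at 96.1, 94.6 and 58.2 CPM in wild type and 30.2, 16.0 and 24.8 CPM in knockout. Tnpo3, the receptor that imports SR proteins into the nucleus, was at 0.353, 0.199 and 31.7 CPM in wild type and 151, 51.2 and 76.1 CPM in knockout, again with wild-type samples 1 and 2 near the counting limit. Genes of nonsense-mediated decay were split 5 to 5 of 10. Adjusted p was 0.9999 in edgeR for every gene of these lists.

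**Figure D5:**
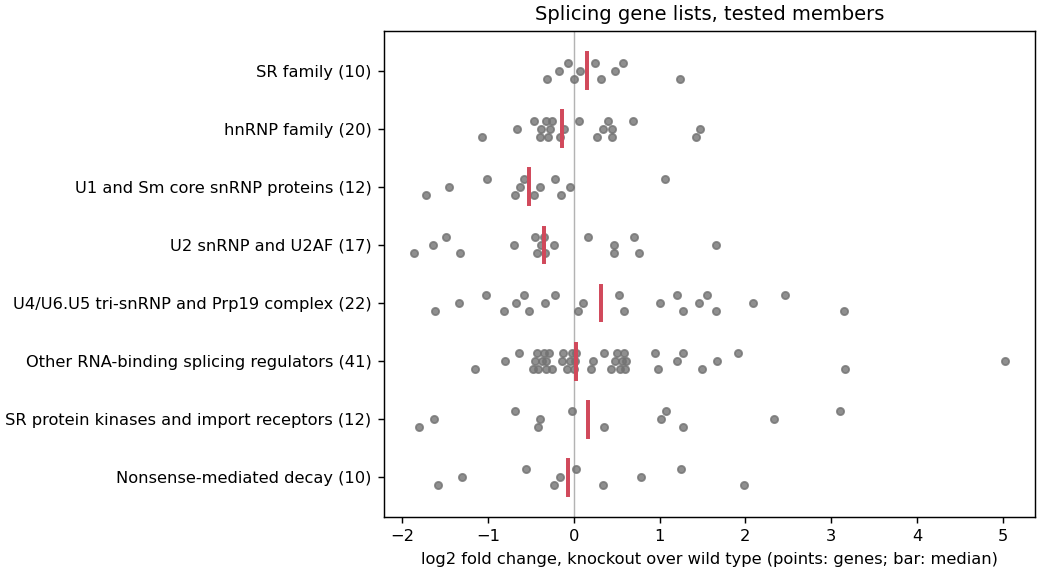
Log2 fold change, knockout over wild type, of every tested gene (points) of the SR and hnRNP families and 6 other splicing lists, with the median of each list (bar) and the number of genes in parentheses. The U1 and Sm core list, which also holds the U2 genes Snrpa1 and Snrpb2, has the lowest median, at -0.52. Both families lie near 0.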

How the data were processed

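RNA of about 1000 sorted microglia per sample was amplified with a template-switching kit and sequenced, per the labels' protocols. The authors deposited whole-number counts of reads per gene, not normalized. The submitters' processing notes name STAR 2.5.2b, featureCounts 1.5.1 and the GRCm38 build, and no source used here gives the settings for strand or for reads with several matches. ERCC spike-in entries (92) were left out. From the counts, edgeR 4.0.16 (R 4.3.3) was used with TMM scaling, its filter on low counts and the quasi-likelihood F test of knockout against wild type over 10394 genes, with Benjamini-Hochberg adjustment over all of them and a threshold of 0.05. The procedure was run on simulated data, and the outcome is not reported here. In the real data the common biological coefficient of variation fitted by edgeR was 1.27, a wide spread between samples. The standard errors (SE) printed with edgeR values were derived from the F test. Each is the absolute log2 fold change divided by the square root of F. The 15 alternatives used other scalings, filters, DESeq2 1.42.0, limma-voom (limma 3.58.1), covariates, and each sample left out in turn. The replicates differed by more than sampling noise. The sequence windows and lengths came from GENCODE M21, matched for all 31 genes. Per-sample values are given in full, in each family, for the 4 tested members with the highest mean CPM, the 4 with the smallest unadjusted p and the 2 with the largest coefficient of variation at a mean of 20 CPM or more, and, from each pathway list, for genes among the 3 with the smallest p. Srsf4, Hnrnpa0, Hnrnpa1, Hnrnpa3 and Hnrnpul2 were added after their values were seen. The members and lists were chosen with earlier results of these data known.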

Additional observations from a re-analysis of the deposited data

How the results depend on the processing

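No SR or hnRNP gene was called in any of the 15 alternatives, and 16 of the 30 tested members kept the sign of their log2 fold change in all that could be fitted. The number of genes called was 0 in edgeR and became 8 without a filter on low counts and 52 with DESeq2, and it was 0 with each sample left out. The SR median was 0.32 with the number of detected genes as a covariate and 0.11 to 0.29 with each sample left out. The hnRNP median was 0.036 with upper-quartile scaling, -0.013 with library size alone and 0.080 with limma-voom, and -0.23 to 0.090 with each sample left out. Some named genes near 0 changed sign. Hnrnpa2b1 was at -0.00055 with RLE factors and -0.00046 with DESeq2, and at -0.023 to 0.15 with a sample left out. Srsf3 was at 0.0081 with upper-quartile scaling, 0.33 with limma-voom and 0.032 with the covariate, and at -0.52 to 0.77 with a sample left out. Srsf7 was at -0.074 with limma-voom and at -0.21 to 0.26, Hnrnpll at 0.040 with upper-quartile scaling, 0.12 with limma-voom and at -0.94 to 1.36, and Hnrnph1 at -0.20 to 0.91 with a sample left out. Samples with the same replicate number did not deviate together (r = 0.001, -0.013 and -0.040 over 6523 genes). These values show no effect of pairing by number, but cannot tell whether samples were collected or prepared in pairs. With the replicate block 0 genes were called, 98 higher and 73 lower had an unadjusted p under 0.05, the hnRNP median was 0.040, the SR median of 0.16 differed from that of all genes by -0.03, and Srsf3 was at 0.094 and Hnrnpll at 0.73. With the length of the longest coding transcript in place of all annotated exon, chosen after seeing the data, levels per kb were 357 for Srsf5, 264 for Hnrnpa2b1 and 229 for Srsf9. The cause of these changes was not tested.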

Other observations

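Among nuclear-retained long RNAs, Malat1, an abundant RNA of nuclear speckles where splicing factors are stored, was at 6674, 2155 and 2094 CPM in wild-type samples 1 to 3 and 3603, 2898 and 2500 CPM in knockout samples 1 to 3. It was highest in wild-type sample 1, as was Srsf3. Neat1, the scaffold of paraspeckles, was at 5.99, 29.8 and 24.9 CPM in wild type and 52.4, 61.3 and 50.8 CPM in knockout, without overlap, with a log2 fold change of 1.44 ± 0.98 (SE) and an adjusted edgeR p of 0.9999. Of all tested genes, 5.97% did not overlap in this direction. Pspc1, a paraspeckle protein, was at 0.264, 0.0795 and 1.67 CPM in wild type and 24.0, 0.102 and 42.2 CPM in knockout. Luc7l, a U1-associated splicing regulator, was at 1.06, 0.119 and 27.9 CPM in wild type and 113, 107 and 40.2 CPM in knockout, with wild-type samples 1 and 2 low, as for Tnpo3 and Srsf4.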
